A study of Arabidopsis thaliana with 2 samples.

Results

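The heat shock proteins and chaperonins of Arabidopsis thaliana were examined as 37 genes, chosen by their gene identifiers for the protein families they encode. They comprised 7 HSP90 genes, 13 HSP70 and BIP genes, HSP101, 11 small heat shock proteins (small HSPs) and 5 chaperonin subunits of plastids and mitochondria. Of these, 34 had a row among the 20612 loci of the table, and ERD2 (AT1G56410), BIP3 (AT1G09080) and HSP21 (AT4G27670) were not analysed here. Poly(A) RNA was sequenced from early globular embryos, a stage before cotyledons form when the plant embryo is still round. A library of Col-0 wild type was compared with a library of dcl1-5 (n = 1 each), with 30 hand-dissected embryos in each pool and plants grown in days of 16 hours of light and 8 hours of dark. The dcl1-5 plants carry a mutant allele of DICER-LIKE1 (DCL1), which cuts plant microRNAs out of their precursors, and the labels do not say how mutant embryos were recognised. The comparison asks which transcripts differ between embryos with and without normal DCL1.

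Heat shock proteins are molecular chaperones that bind unfolded or partly folded proteins. HSP70 proteins hold and release short hydrophobic stretches with the help of J-domain partners and nucleotide exchange factors, HSP90 proteins act later on nearly folded clients such as kinases and receptors, and chaperonins enclose a client in a barrel closed by a co-chaperonin lid. Small HSPs bind unfolding proteins without using ATP, and HSP101 pulls proteins out of aggregates. Some of these genes are active in all growing cells, whereas most small HSPs are silent in vegetative tissue until heat shock factors bind the heat shock element, a repeat of GAA and its reverse complement TTC, and several are also switched on by development in seeds.

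Values are RPM, reads of a gene scaled to the genome-matching reads of its library, which numbered 5611643 for wild type and 4513588 for dcl1-5. A single read was worth 0.178 RPM in the first and 0.222 RPM in the second. Brackets hold exact 95% intervals on the reads, and because amplified RNA gives copies of the same molecules, they reflect counting error alone. With 1 library per genotype no difference has a replicate check, the genotypes are compared without p-values, and genotype and library cannot be told apart. DCL1 (AT1G01040) gave 26 wild-type reads, 4.63 RPM, against 3 reads, 0.665 RPM, for dcl1-5, a total over the whole gene that was 6.97-fold lower [2.14 to 36.0]. All 7 embryo markers had reads in both libraries, but their levels differed, and 5 had more RPM in dcl1-5 and 2 had less. The sum of the embryo markers, most of it PDF1 of the outer cell layer, was 4715 RPM in wild type and 3739 RPM in dcl1-5, 1.26-fold lower [1.24 to 1.29]. DRN (AT1G12980) went from 150 to 9 reads, 13.4-fold lower [6.88 to 29.9], while WOX8 (AT5G45980) and WOX9 (AT2G33880) were 3.78-fold [2.36 to 6.27] and 3.36-fold higher [2.41 to 4.74]. The 13 seed coat markers summed to 215 RPM in wild type and 418 RPM in dcl1-5, and the 5 endosperm markers in the table to 29.0 and 58.3 RPM. Of these genes 12 of 13 and 3 of 5 had more RPM in dcl1-5, as did 14150 of all 20612 genes, and none was at 0 reads. In pooled embryos, fewer cells of a type and less RNA per cell cannot be told apart.

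Most chaperone transcripts differed by less than 2-fold between the libraries, and the small HSPs as a class had a lower summed level in dcl1-5. Of the 34 genes in the table, 30 averaged 5 RPM or more across the libraries and were compared as log2((dcl1-5 RPM + 1)/(wild-type RPM + 1)). Of these 30, 2 were at least 2-fold higher in dcl1-5, where 33.8% of all 10240 genes with that average were. Another 3 were at least 2-fold lower, where 4.58% of all genes were. The genes higher were the plastid HSP70s cpHSC70-1 and cpHSC70-2, and the genes lower were HSP70B and the small HSPs HSP17.4 and HSP23.6. HSP23.6 was under 5 RPM in dcl1-5 and reached the average through wild type, so it had to be lower.

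The balance between higher and lower turned on how the libraries were scaled. The median log2 ratio of all 10240 genes was 0.63 with the authors' RPM, 0.18 with median-of-ratios scaling and 0.00 with TMM scaling. Against that, the 30 chaperone genes had a median of -0.26, and 27 of them lay below the median of all genes. After median-of-ratios scaling 0 were higher and 8 lower, where 19.4% and 10.7% of all genes were, and after TMM scaling 0 were higher and 13 lower, where 15.0% and 14.5% were. The shift also depended on expression. Its value was 0.86 in the 10% of genes with the lowest mean RPM and 0.06 in the 10% with the highest, and 11 of the 30 chaperone genes belong to the latter.

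The counts moved with the call rule as well. An exact binomial test on the reads, which compares the libraries and not the genotypes, called 7 of the 30 higher and 15 lower, where 59.6% and 14.3% of all genes were called. With 0.63 subtracted from every ratio 0 were higher and 12 lower, where 14.6% and 14.4% of all genes were. A 4-fold limit left 0 higher and 1 lower, where 7.82% and 0.811% of all genes passed, and a minimum of 20 RPM left 1 and 1, where 25.8% and 4.57% did. A pseudocount of 5 RPM left 0 higher and 3 lower, where 23.3% and 3.12% did.

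**Figure D1:**
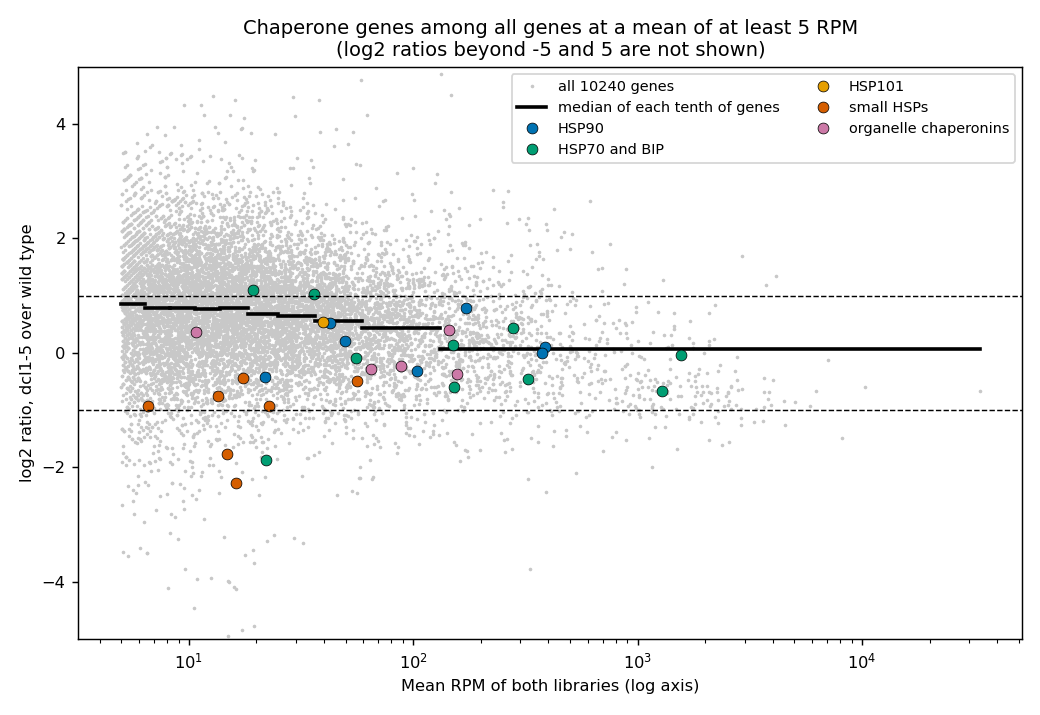
Log2 ratio of dcl1-5 over wild type (vertical axis, pseudocount 1 RPM) against mean RPM of both libraries (horizontal log axis) for all 10240 genes in grey, with chaperone genes coloured by class, medians of 10 equal groups of genes by mean RPM as black bars and the 2-fold limits dashed. All 7 small HSPs lie below 0 and below the median of their group, which was 0.55 to 0.79 for the groups that hold them, while HSP70-2 and HSC70-1, furthest to the right, lie at -0.03 and -0.66. HSP23.6 and AT5G37670 were under 5 RPM in dcl1-5, so they had to be lower.

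The small HSPs, which keep unfolding proteins from clumping, had fewer RPM in dcl1-5 in each of the 10 genes with a row, as did 6462 of all 20612 genes. The interval of the ratio excluded equality for 7 of them, included it for HSP22.0 and AT1G52560, and could not be given for HSP18.2, which was at the detection floor. Intervals without equality were common. They were found for 24 of the 34 chaperone genes, and the binomial test on the reads called 7567 of all 10240 genes. Together the 10 small HSPs drew 1108 reads against 461, and the summed level was 197 RPM [186 to 209] against 102 RPM [93.0 to 112], 1.93-fold lower [1.73 to 2.16]. The median log2 ratio of the 7 genes at 5 RPM was -0.93, or -1.56 relative to the median of all genes, and it was -1.34 and -1.50 after median-of-ratios and TMM scaling. Of these 7, 2 were at least 2-fold lower with the authors' RPM, 5 with median-of-ratios and 7 with TMM. The shares of all genes lower by the same rules were 4.58%, 10.7% and 14.5%. HSP23.6 and AT5G37670 were under 5 RPM in dcl1-5 and reached that average through wild type, so these 2 genes had to be lower. The medians and counts of lower genes above include them. With the authors' RPM the other genes were at -1.77 (HSP17.4), -0.93 (HSP17.6A), -0.75 (AT1G53540), -0.50 (AT1G07400) and -0.44 (HSP17.6II). In the same order they were at -2.37, -1.57, -1.37, -1.16 and -1.07 with TMM. Among all genes at a mean of 5 RPM or more, 25.0% had a log2 ratio below 0 with the authors' RPM. The summed levels given above were higher in dcl1-5 for the seed coat and endosperm markers and lower for the embryo markers. The embryo sum was mostly PDF1, and 5 of the 7 embryo markers had more RPM in dcl1-5. The part of these cell types in the result was not tested.

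HSP23.6 (AT4G25200), a small HSP of mitochondria, showed the largest difference of the 30 genes. Wild type gave 155 reads, a level of 27.6 RPM [23.4 to 32.3], against 22 reads and 4.87 RPM [3.05 to 7.38] for dcl1-5. The gene was 5.67-fold lower [3.61 to 9.31], but it passed the 5 RPM average through wild type, so its direction was set by that limit. HSP17.4 (AT3G46230), a cytosolic class I small HSP, gave 132 wild-type reads, a level of 23.5 RPM [19.7 to 27.9], against 28 reads and 6.20 RPM [4.12 to 8.97] for dcl1-5, 3.79-fold lower [2.51 to 5.92]. In wild type HSP23.6 and HSP17.4 held 14.0% and 11.9% of the reads of the class, and in dcl1-5 they held 4.77% and 6.07%.

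The remaining small HSPs were lower by less, or had too few reads to size the difference. HSP17.6A (AT5G12030) went from 30.1 to 15.3 RPM, 1.97-fold lower [1.48 to 2.65], and its close relative HSP17.6II (AT5G12020), also a cytosolic class II protein, from 20.1 to 14.6 RPM, 1.38-fold lower [1.01 to 1.90]. AT5G37670, a HSP20-like gene, went from 8.91 to 4.21 RPM, 2.12-fold lower [1.23 to 3.80], but at -0.93 it missed the 2-fold limit on the log2(RPM + 1) scale. Among the 37 genes, the small HSP with the highest level per length in wild type, AT1G07400 at 77.1 RPM per kilobase of transcript, went from 66.1 to 46.3 RPM, 1.43-fold lower [1.20 to 1.70], and its share of the class was 33.5% in wild type and 45.3% in dcl1-5. AT1G53540 went from 17.1 to 9.75 RPM, 1.75-fold lower [1.22 to 2.57].

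Another 3 small HSPs were almost unread in either library. HSP18.2 (AT5G59720), which is commonly used to report heat stress in this plant, gave 3 wild-type reads against 0 for dcl1-5, at the detection floor of 3 reads, so no fold is given. HSP22.0 (AT4G10250), a small HSP of the endoplasmic reticulum (ER), had 13 and 3 reads, 3.49-fold lower with an interval that includes equality [0.958 to 19.1]. AT1G52560 had 6 reads and 1 read. These 3 genes and mtHSC70-2 were under the 5 RPM limit and are in no count of 2-fold differences.

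**Figure D2:**
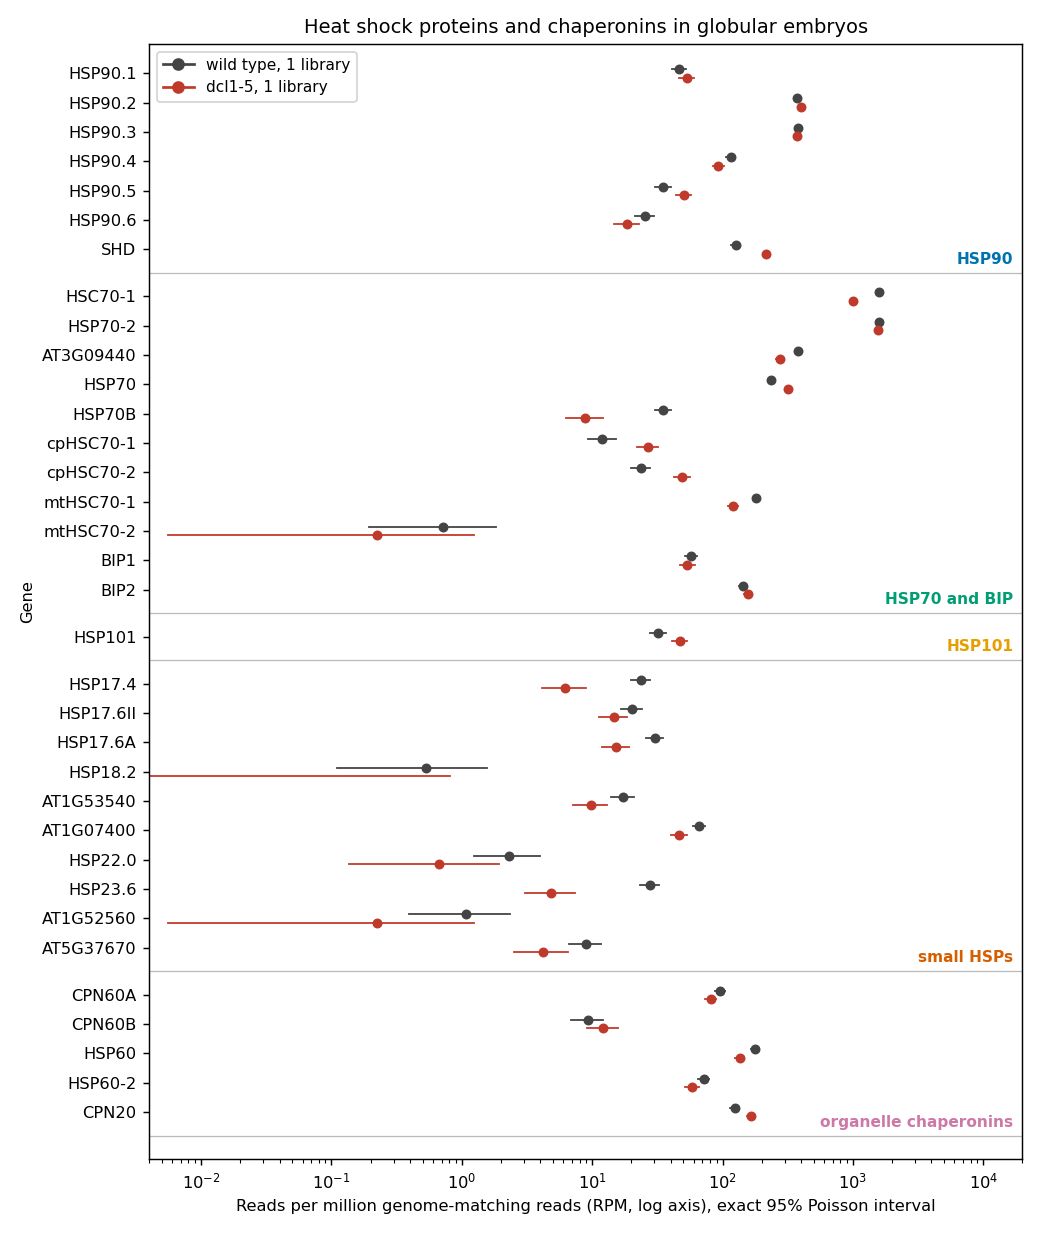
Level of each of the 34 chaperone genes in RPM (horizontal log axis) in the wild-type library (dark) and the dcl1-5 library (red), with exact 95% Poisson intervals, grouped by class. Every small HSP read in both libraries has its dcl1-5 point to the left of the wild-type point, by the widest gap for HSP23.6, which went from 27.6 to 4.87 RPM; HSP18.2 had 0 reads in dcl1-5 and so shows only the upper part of its interval.

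The promoters of the small HSPs are shown because the heat shock element is the known control site of this class. The 250 bases before the annotated transcript start were read from the RefSeq annotation of TAIR10.1, on each gene's own strand, and searched for GAANNTTC and TTCNNGAA. Each of these is its own reverse complement, so both strands were covered, and adjoining matches can overlap in a shared GAA or TTC. Matched GAA and TTC units are in capitals. HSP17.4 and AT1G53540 had the most matches and HSP23.6 the largest difference. HSP17.6A, with 1 match like others not shown, was picked without a rule. HSP17.4 lies on the minus strand of chromosome 3, HSP17.6A on the minus strand of chromosome 5, and AT1G53540 and HSP23.6 on the plus strands of chromosomes 1 and 4.
HSP17.4: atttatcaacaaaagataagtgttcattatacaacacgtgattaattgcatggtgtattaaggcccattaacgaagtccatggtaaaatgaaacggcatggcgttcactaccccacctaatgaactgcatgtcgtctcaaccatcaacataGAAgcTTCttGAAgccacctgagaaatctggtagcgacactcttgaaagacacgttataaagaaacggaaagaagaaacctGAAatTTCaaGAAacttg
AT1G53540: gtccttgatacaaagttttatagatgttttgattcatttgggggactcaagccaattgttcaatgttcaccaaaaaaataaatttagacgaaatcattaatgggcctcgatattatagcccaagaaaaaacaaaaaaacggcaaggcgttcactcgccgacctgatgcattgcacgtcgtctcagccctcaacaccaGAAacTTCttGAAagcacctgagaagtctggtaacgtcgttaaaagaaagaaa
HSP17.6A: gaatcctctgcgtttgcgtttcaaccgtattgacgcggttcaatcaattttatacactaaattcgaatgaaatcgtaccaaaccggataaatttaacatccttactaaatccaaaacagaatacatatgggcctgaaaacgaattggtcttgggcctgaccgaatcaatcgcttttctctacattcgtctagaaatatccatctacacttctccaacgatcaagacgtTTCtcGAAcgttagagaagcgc
HSP23.6: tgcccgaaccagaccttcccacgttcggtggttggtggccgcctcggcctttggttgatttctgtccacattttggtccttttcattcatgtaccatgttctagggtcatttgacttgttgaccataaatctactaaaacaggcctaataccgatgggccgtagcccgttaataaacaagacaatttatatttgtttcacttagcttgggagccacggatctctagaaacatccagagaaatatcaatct

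HSP17.4 had 4 matches, starting 99, 94, 18 and 13 bases before its start, which form 2 runs of 3 units. AT1G53540 had 2 matches, 53 and 48 bases before its start, which form 1 such run, and HSP17.6A had 1 match at 22 bases. HSP23.6, the gene with the largest difference, had none, which says only that these letters are not in this window. Of the 11 small HSP promoters 6 held a match, or 54.5%, against 4432 of 27443 promoters of protein-coding genes, or 16.1%. Runs of 3 units were in 2 of the 11, against 0.386% of all promoters. No promoter of the 7 HSP90 genes, the 13 HSP70 and BIP genes or HSP101 held a match, and of the 5 chaperonin promoters only that of CPN20 did, at 37 bases. As for HSP23.6, a promoter without a match lacks only these letters in this window, and other forms of the element were not searched for.

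**Figure D3:**
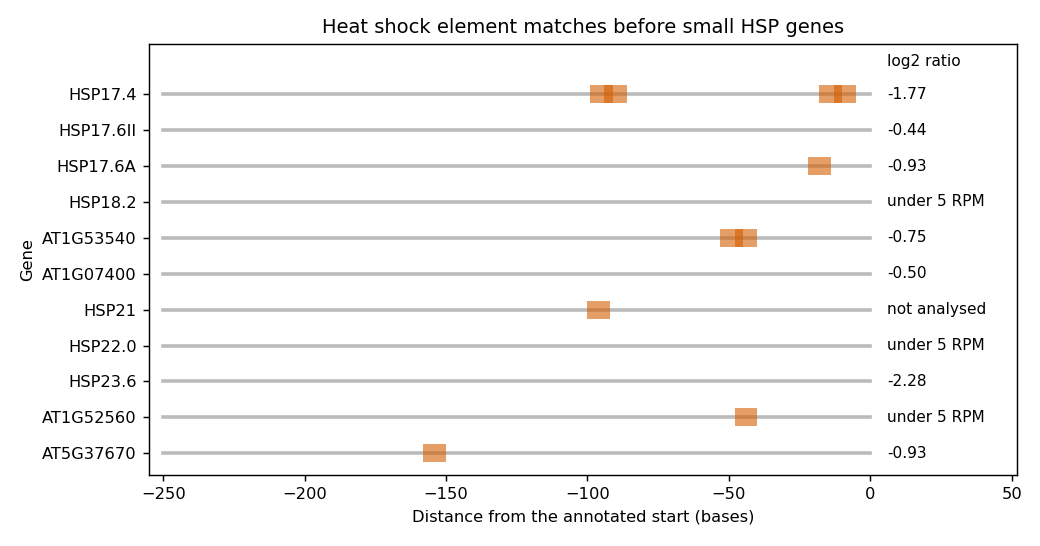
Positions of heat shock element matches (orange blocks, each 8 bases wide) in the 250 bases before the annotated start of the 11 small HSP genes, with the log2 ratio of dcl1-5 over wild type on the right where the gene averaged 5 RPM or more. Genes with and without a match both had negative ratios, as HSP17.4 with 4 matches was at -1.77 and HSP23.6 with 0 was at -2.28.

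The HSP70 and BIP genes held the most reads of the 5 classes and included differences in both directions. Their summed level was 4225 RPM in wild type and 3553 RPM in dcl1-5, 1.19-fold lower [1.17 to 1.21]. The median log2 ratio of the 10 genes at 5 RPM was -0.06, or -0.69 relative to all genes, with 2 genes at least 2-fold higher and 1 lower.

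The cytosolic HSP70s, which serve most newly made proteins, made up most of this level. HSC70-1 (AT5G02500), the main constitutive form, gave 8844 wild-type reads, a level of 1576 RPM [1543 to 1609], against 4493 reads and 995 RPM [967 to 1025] for dcl1-5, 1.58-fold lower [1.53 to 1.64]. HSP70-2 (AT5G02490) had 8869 and 6979 reads, or 1580.5 and 1546 RPM, 1.02-fold lower with an interval that includes equality [0.990 to 1.05]. The pair stood level in wild type, at 37.3% and 37.4% of the reads of the class, and apart in dcl1-5, at 28.0% and 43.5%. Per kilobase of transcript they were also level in wild type, at 617 and 636 RPM per kilobase, where HSP90.3 followed at 144. Per kilobase of unique stretches the order was HSP70-2 at 1345, HSC70-1 at 1089 and HSP90.3 at 768 RPM, so HSP90.3 stood closer to the pair. For HSP70-2 47.7% of the 25-base stretches of the transcript were unique in TAIR10.1 with up to 2 mismatches, for HSC70-1 57.2% and for HSP90.3 19.0%, so all 3 levels can be underestimates after the authors removed multiply mapped reads.

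HSP70B (AT1G16030), a heat-inducible cytosolic HSP70, had the largest difference of its class. Its 197 wild-type reads made 35.1 RPM [30.4 to 40.4] and its 40 reads in dcl1-5 made 8.86 RPM [6.33 to 12.1], 3.96-fold lower [2.81 to 5.71]. HSP70 (AT3G12580), another heat-inducible cytosolic member, went from 236 to 319.7 RPM, 1.36-fold higher [1.26 to 1.46] with the authors' RPM and slightly lower after both other scalings, with log2 ratios of -0.04 and -0.23. AT3G09440 went from 377 to 274 RPM, 1.38-fold lower [1.28 to 1.48], and overlaps AT3G02205 on the same strand, so its reads are less certain.

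The HSP70s of plastids and mitochondria differed in opposite directions. The plastid stromal forms, which take part in protein import, were the chaperone genes highest in dcl1-5 relative to wild type. cpHSC70-1 (AT4G24280) went from 67 reads and 11.9 RPM to 121 reads and 26.8 RPM, 2.25-fold higher [1.65 to 3.07], and cpHSC70-2 (AT5G49910) from 132 reads and 23.5 RPM to 221 reads and 49.0 RPM, 2.08-fold higher [1.67 to 2.60]. They stayed higher but under 2-fold after median-of-ratios scaling, at log2 ratios of 0.65 and 0.56, and after TMM scaling, at 0.47 and 0.38. Under the authors' RPM they were also among the 33.8% of all genes past that limit. The mitochondrial mtHSC70-1 (AT4G37910) went from 182 to 121 RPM, 1.51-fold lower [1.36 to 1.68], and mtHSC70-2 (AT5G09590) had 4 reads and 1 read.

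BIP proteins are the HSP70s of the ER lumen, where they fold secreted proteins. BIP1 (AT5G28540) went from 57.6 to 53.8 RPM [47.3 to 61.0], and BIP2 (AT5G42020) from 144 to 158 RPM. Both ratios include equality, at 1.07-fold lower [0.902 to 1.27] and 1.09-fold higher [0.987 to 1.21], and BIP2 turned lower after both other scalings. BIP1 and BIP2 are near-identical copies, with 15.5% and 14.9% of 25-base stretches unique, so their levels are uncertain.

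The HSP90 genes differed by less than 2-fold in all 7 members. Their summed level was 1099 RPM in wild type and 1207 RPM in dcl1-5, 1.10-fold higher [1.06 to 1.14], and the median log2 ratio was 0.10 with the authors' RPM but -0.38 and -0.57 after median-of-ratios and TMM scaling. SHD (AT4G24190), the ER form, which CLAVATA signalling in the shoot meristem needs, showed the largest difference of the class. It went from 126 RPM [117 to 135] to 217 RPM [203 to 231], 1.72-fold higher [1.56 to 1.90], and stayed higher after both scalings at log2 ratios of 0.30 and 0.11. Its share of the reads of the class was 11.4% in wild type and 17.9% in dcl1-5.

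Cytosolic HSP90s, the clients of which include signalling kinases and hormone receptors, were close to equal. HSP90.2 (AT5G56030) went from 374 to 399 RPM, HSP90.3 (AT5G56010) from 377 to 376 RPM and HSP90.4 (AT5G56000) from 116 to 92.8 RPM, the last being 1.25-fold lower [1.10 to 1.42]. These 3 genes have 26.4%, 19.0% and 19.0% of their 25-base stretches unique, so reads could be lost from each. The heat-inducible HSP90.1 (AT5G52640) went from 46.2 to 53.2 RPM, 1.15-fold higher with an interval that includes equality [0.962 to 1.38], and turned lower after both other scalings. HSP90.5 (AT2G04030) of plastids went from 34.9 to 50.5 RPM, 1.45-fold higher [1.19 to 1.76], with a log2 ratio of 0.05 and -0.14 after the other scalings, and HSP90.6 (AT3G07770) of mitochondria from 25.3 to 18.6 RPM, 1.36-fold lower [1.03 to 1.80].

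HSP101 (AT1G74310), the cytosolic disaggregase that heat tolerance depends on, went from 180 reads and 32.1 RPM [27.6 to 37.1] to 212 reads and 47.0 RPM [40.9 to 53.7]. That was 1.46-fold higher [1.19 to 1.80], but the log2 ratio of 0.54 lay below the 0.63 of all genes and was 0.07 after median-of-ratios and -0.12 after TMM scaling.

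The organelle chaperonins were near equal in sum, at 476 RPM in wild type and 451 RPM in dcl1-5, 1.06-fold lower with an interval that includes equality [0.996 to 1.12]. The mitochondrial barrel subunits HSP60 (AT3G23990) and HSP60-2 (AT2G33210) went from 176 to 136 RPM, 1.30-fold lower [1.17 to 1.43], and from 71.5 to 58.3 RPM, 1.23-fold lower [1.05 to 1.44]. The plastid subunit CPN60A (AT2G28000), which folds the large subunit of Rubisco, went from 95.3 to 80.9 RPM, 1.18-fold lower [1.03 to 1.35]. Its partner CPN60B (AT1G55490) had 52 and 55 reads, or 9.27 and 12.2 RPM, a ratio that includes equality [0.884 to 1.96]. The plastid lid protein CPN20 (AT5G20720) went from 124 to 164 RPM, 1.32-fold higher [1.19 to 1.47], and was lower after both other scalings, at -0.08 and -0.27.

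**Figure D4:**
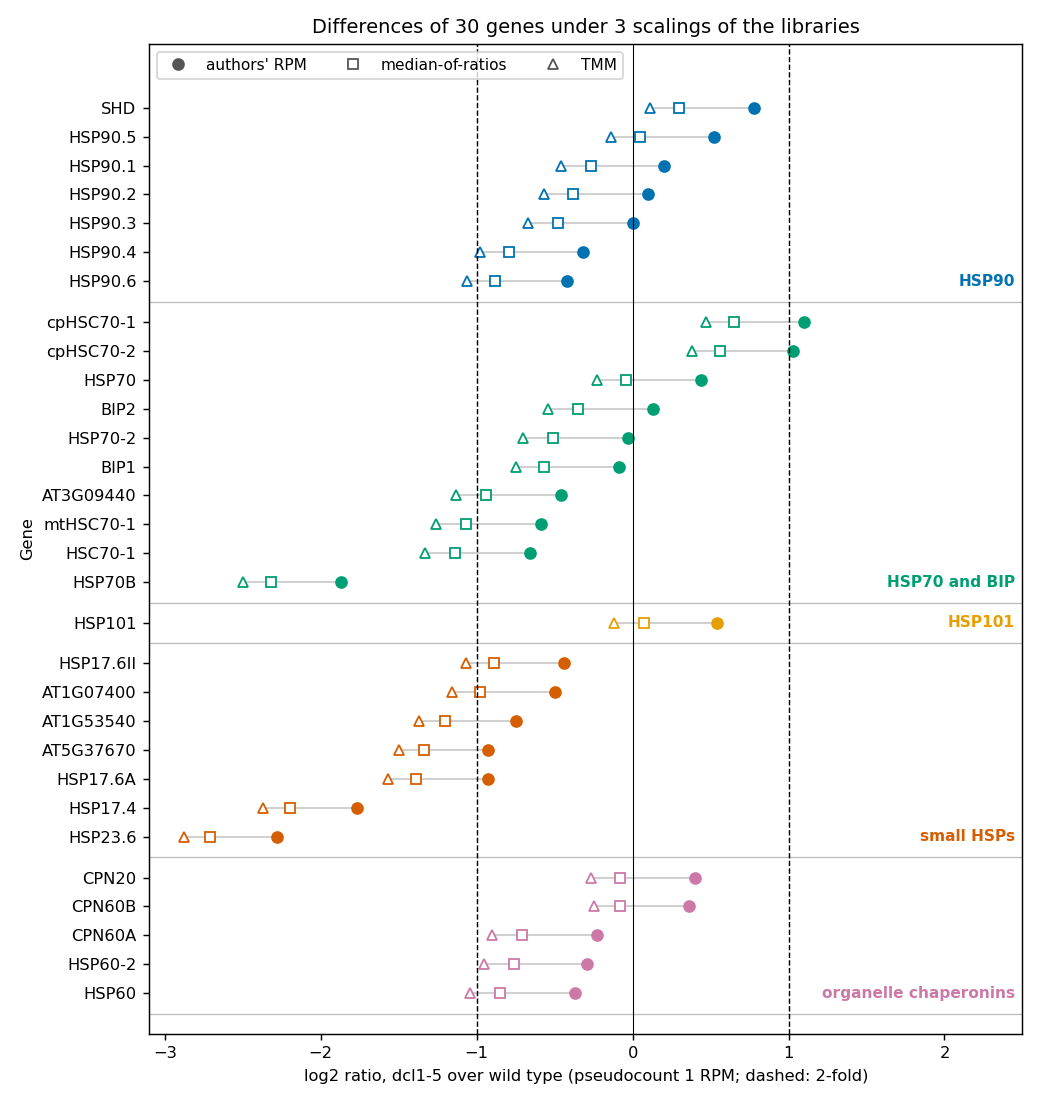
Log2 ratio of dcl1-5 over wild type (horizontal axis, pseudocount 1 RPM, 2-fold limits dashed) of the 30 chaperone genes averaging 5 RPM or more, with the authors' RPM (filled circles), median-of-ratios scaling (squares) and TMM scaling (triangles). The scalings move all genes left together, so 6 of 30 ratios change sign with median-of-ratios and 8 with TMM, while the small HSPs, HSP70B and HSC70-1 stay below 0 and SHD and the plastid HSP70s above it.

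The partners of these chaperones were read from 11 further gene lists. Among heat shock factors, which switch on heat shock genes, 16 of 21 had a row, 4 reached 5 RPM, and 2 of these were at least 2-fold lower, where 4.58% of all genes were. Over the 16 genes, without a minimum, 10 had more RPM in dcl1-5, as did 14150 of all 20612 genes. The median log2 ratio of the 16 was 0.36, against 0.42 for all 20612 genes. HSFA3 (AT5G03720), an activator of the heat response picked here after its values were seen, averaged under 5 RPM with 4 wild-type reads against 37 for dcl1-5. Other factors under that average went the other way. HSFA7A (AT3G51910) had 27 wild-type reads against 3 and HSFB4 (AT1G46264) 14 against 1, both also picked after their values were seen. HSFA1D (AT1G32330), one of the HSFA1 activators, went from 32.4 to 10.4 RPM, 3.11-fold lower [2.25 to 4.39]. HSFB2A (AT5G62020), of the repressor class B, went from 31.5 to 15.1 RPM, 2.09-fold lower [1.57 to 2.81]. HSFA2 (AT2G26150), which prolongs the heat response, went from 29.9 to 36.3 RPM, a ratio that includes equality [0.973 to 1.51], and HSFB2B (AT4G11660) from 27.4 to 28.6 RPM. Of the 21 heat shock factor promoters 5 held a heat shock element match, or 23.8%.

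The small HSPs outside the 37 genes that averaged 5 RPM or more had lower values as well. Of 8 on the list 5 reached it, and the median log2 ratio was -1.47. Of these 5, 3 were at least 2-fold lower and 0 higher, where 4.58% and 33.8% of all genes were. AT5G51440 went from 33.1 to 9.31 RPM, 3.56-fold lower [2.54 to 5.11], AT1G59860 from 94.3 to 29.9 RPM, 3.15-fold lower [2.60 to 3.84], and AT2G29500 from 31.2 to 10.6 RPM, 2.93-fold lower [2.12 to 4.12]. HSP18.5 (AT2G19310), also picked after its values were seen, at 6.77 and 4.65 RPM, reached the minimum through wild type and its ratio includes equality [0.833 to 2.61]. AT1G54050 went from 64.2 to 35.4 RPM, 1.81-fold lower [1.50 to 2.19]. The summed level of the 7 with a row was 234 RPM in wild type and 100.4 RPM in dcl1-5. The other 2 genes in the table averaged under 5 RPM and had more RPM in dcl1-5. A heat shock element match was in 1 of the 8 promoters, or 12.5%.

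The cytosolic chaperonin CCT, which folds actin and tubulin, had 9 genes, all at 5 RPM. Of these, 8 had a log2 ratio below 0, where 25.0% of all genes did. Their median was -0.67, where the 10% of genes with the highest mean RPM had 0.06. Their summed level went from 2429 to 1594 RPM, 1.52-fold lower [1.48 to 1.57]. After median-of-ratios and TMM scaling the medians were -1.15 and -1.34. By those scalings 5 and 6 were at least 2-fold lower, where 10.7% and 14.5% of all genes were. With the authors' RPM a single gene passed the 2-fold limit, downwards, where 4.58% of all genes did. It was AT3G03960 of the TCP-1/cpn60 family, at 334 and 154 RPM, 2.17-fold lower [1.98 to 2.37]. Prefoldin, which hands actin and tubulin to CCT, had 0 of 6 genes past 2-fold in either direction and a median of -0.21.

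Of the other chaperonin subunits, 6 of 8 reached 5 RPM, with 1 at least 2-fold higher and 1 lower, where 33.8% and 4.58% of all genes were. The mitochondrial lid protein CPN10 (AT1G14980) had 6762 and 2909 reads, or 1205 and 644 RPM, 1.87-fold lower [1.79 to 1.95], and overlaps AT1G14990 on the same strand. AT1G23100 went from 148 to 53.2 RPM, 2.78-fold lower [2.41 to 3.23], and the plastid subunit Cpn60beta3 (AT5G56500) from 25.5 to 54.9 RPM, 2.16-fold higher [1.75 to 2.67].

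Co-chaperones were mostly near equal with the authors' RPM, where the median log2 ratio of all genes was 0.63. After median-of-ratios and TMM scaling the medians were -0.37 and -0.56 for HSP90 partners and -0.47 and -0.66 for HSP70 partners. The counts and medians that follow are with the authors' RPM. Of 11 HSP90 partners at 5 RPM, 1 was at least 2-fold higher and 0 lower, with a median of 0.09. That gene was the peptidyl-prolyl isomerase ROF2 (AT5G48570), at 2.49 and 9.75 RPM, 3.91-fold higher [2.10 to 7.72]. Of 13 HSP70 partners 1 was higher and 0 lower, with a median of -0.02. It was P58IPK (AT5G03160), an ER J-domain protein, at 15.5 and 35.2 RPM, 2.27-fold higher [1.74 to 2.99]. Among the 4 HSP110 genes, exchange factors of HSP70, 2 were higher, HSP70-16 (AT1G11660) at 3.92 and 13.7 RPM and HSP70-17 (AT4G16660) at 6.06 and 14.2 RPM.

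Other genes of the heat and ER folding responses had medians above 0 with the authors' RPM. Of 7 heat-response markers at 5 RPM, 2 passed the 2-fold limit upwards and 0 downwards, and the median was 0.25, which became -0.23 and -0.42 after median-of-ratios and TMM scaling. DREB2A (AT5G05410), a stress transcription factor, went from 13.7 to 49.0 RPM, 3.57-fold higher [2.74 to 4.69], and MBF1C (AT3G24500), a coactivator of the heat response, from 26.2 to 53.4 RPM, 2.04-fold higher [1.65 to 2.52]. BOB1 (AT5G53400), a chaperone needed for embryo development, went from 87.7 to 59.2 RPM, 1.48-fold lower [1.27 to 1.73]. A heat shock element match was in 6 of the 8 promoters of this list. Of 4 other Clp ATPases at 5 RPM 1 was higher, the plastid disaggregase CLPB3 (AT5G15450), at 3.21 and 12.2 RPM, 3.80-fold higher [2.20 to 6.87]. Of 15 ER folding genes at 5 RPM 3 were higher and 0 lower, with a median of 0.50, or 0.02 and -0.17 after the other scalings, among them the stress sensor IRE1A (AT2G17520) at 4.10 and 19.1 RPM and the disulfide isomerase PDIL1-2 (AT1G77510) at 97.3 and 205 RPM. The counts of higher genes in these lists stand beside 33.8% of all genes past that limit, and the counts of lower genes beside 4.58%. ROF2, HSP70-16, CLPB3 and IRE1A were under 5 RPM in wild type and reached that average through dcl1-5, so they had to be higher. DREB2A, which was above 5 RPM in both libraries, had log2 ratios of 1.30 after median-of-ratios and 1.12 after TMM scaling, where 19.4% and 15.0% of all genes were at least 2-fold higher. ROF2, CLPB3 and IRE1A also stayed past 2-fold after both scalings. MBF1C fell under it, at 0.53 and 0.35, as did PDIL1-2, at 0.59 and 0.40. P58IPK, at 0.68 and 0.49, Cpn60beta3, at 0.61 and 0.43, and HSP70-17, at 0.67 and 0.50, fell under it too.

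**Figure D5:**
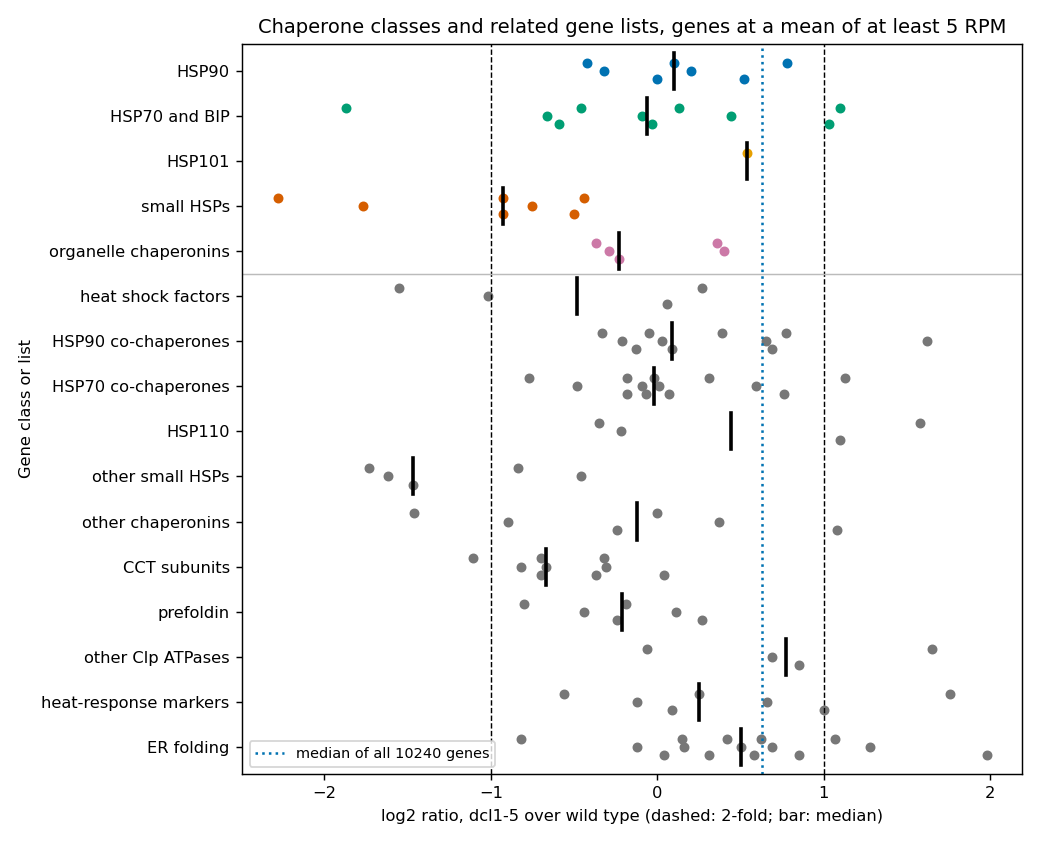
Log2 ratio of dcl1-5 over wild type (horizontal axis) of each gene averaging 5 RPM or more, for the 5 chaperone classes (coloured) and 11 related gene lists (grey), with the median of each as a black bar, 2-fold limits dashed and the median of all 10240 genes dotted. The medians of the small HSPs, at -0.93, and of the other small HSPs, at -1.47, are the furthest to the left, followed by the CCT subunits at -0.67, and that of the other Clp ATPases, at 0.77, is the furthest to the right.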

How the data were processed

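Reads were aligned to TAIR9 with Bowtie, per the submitters' processing notes, with no version given in the sources used here. Per the series' design text, up to 2 mismatches were allowed in a seed of 25 bases, uniquely mapped reads were kept, and the antisense strand was counted because the amplification inverts the RNA. The deposited values are RPM, for which the authors divided by each library's genome-matching reads, per the file headers. All values (100.0%) were whole multiples of 1 read within 0.01 reads, so reads were recovered, and 90.2% and 88.0% of genome-matching reads lay in listed genes. The authors' own ratio column was not used.

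The 37 genes, the classes and the 11 lists were chosen with earlier results of these data known. Every listed gene of the 37 could be named, and up to 4 genes per further list with the largest absolute log2 ratio among those averaging 5 RPM or more. The pseudocount was 1 RPM, the fold limit 2 and the floor 3 reads. Printed folds are plain RPM ratios with exact conditional (Clopper-Pearson) intervals, and RPM has exact Poisson intervals. The count test was an exact conditional binomial test on the recovered reads with Benjamini-Hochberg adjustment at 0.05, which called 7567 of 10240 genes and compares the libraries, not the genotypes. Alternatives were other pseudocounts, filters, scalings, fold limits and the binomial test, as given in the closing section. TMM factors came from edgeR 4.0.16 in R 4.3.3. The deposited table holds no coordinates and the reference build is TAIR10.1, so genes were matched by identifier, promoters, transcript lengths and same-strand overlaps were taken from RefSeq TAIR10.1, and no coordinates are printed. Uniqueness of 25-base stretches was found with bwa 0.7.19 at up to 2 mismatches. Other steps ran in Python 3.11.15 (scipy 1.17.1, pandas 2.3.3, numpy 2.4.6) and were tested on simulated data.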

Additional observations from a re-analysis of the deposited data

How the results depend on the processing

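No paired analysis was possible because each genotype has 1 library, and for the same reason no library could be left out. The 2 higher chaperone genes became 0 with a pseudocount of 5 RPM, 1 at a minimum mean of 20 RPM, 0 with median-of-ratios, 0 with TMM, 0 at 4-fold, 0 with the median of all genes subtracted and 7 by the binomial test. The 3 lower became 1 at 20 RPM, 8 with median-of-ratios, 13 with TMM, 1 at 4-fold, 12 with the median subtracted and 15 by the binomial test. Over all genes, 3464 higher became 5706 with no filter, 1243 at 20 RPM, 1984 with median-of-ratios, 1541 with TMM, 801 at 4-fold and 6101 by the binomial test, and 469 lower became 1154, 220, 1091, 1486, 83 and 1466. With median-of-ratios and TMM the class medians were -0.38 and -0.57 for HSP90, -0.54 and -0.73 for HSP70 and BIP, and -0.71 and -0.90 for the organelle chaperonins, and -1.50 with TMM for the small HSPs. At 20 RPM and at 4-fold fewer genes can pass by construction. Each scaling changes the RPM ratios of all genes by the same factor, so the counts and medians move with it. Why the scalings gave different factors was not tested. Of the 30 single ratios, 2 changed sign with equal totals, 6 with median-of-ratios and 8 with TMM, none of them past 2-fold. Leaving out genes with under 50% of 25-base stretches unique, an alternative chosen after seeing the data, left 2 higher and 3 lower. Leaving out genes by protein identity was not run, as no protein table was used here. At 1 read for 0.178 or 0.222 RPM, differences of genes with a few reads were not detectable.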

Other observations

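The chaperone genes were grouped by the compartment their proteins are known to work in, a grouping chosen after the values were seen. With the authors' RPM the median log2 ratios of the plastid and the mitochondrial genes lay on opposite sides of 0. The 6 plastid genes with a row summed to 299 RPM in wild type and 384 RPM in dcl1-5, 1.28-fold higher [1.20 to 1.37], and 5 of the 6 had more RPM in dcl1-5, as did 14150 of all 20612 genes, so the plastid count is close to that of all genes. The 6 mitochondrial genes summed to 483 and 339 RPM, 1.43-fold lower [1.34 to 1.52], and all 6 had less, as did 6462 of all genes. The median log2 ratios at 5 RPM were 0.46 for plastids and -0.42 for mitochondria, against 0.63 for all genes, and after TMM scaling both were below 0, at -0.19 and -1.06. The 4 ER genes summed to 329.7 and 429 RPM, 1.30-fold higher [1.22 to 1.39], where SHD gave most of the difference, and the median turned from 0.13 to -0.54 with TMM. The 14 cytosolic genes summed to 4824 and 4149 RPM, 1.16-fold lower [1.14 to 1.18]. The small HSPs AT1G53540, AT1G07400, AT1G52560 and AT5G37670 were given no compartment here and are in none of these sums. Each of them had fewer RPM in dcl1-5, so the sums are not complete for any compartment they belong to. The difference between compartments was not tested.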
